A study of Homo sapiens with 8 samples.

Results

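The events described here are alternative 3′ splice sites (A3SS) that lie over 50 nt apart. In such an event 1 exon can begin at either of a pair of 3′ splice sites that are joined to the same upstream exon. The long exon form begins at the intron-proximal site, which is nearer to the upstream exon, and the short exon form begins at the distal site, so that the stretch between the sites (the extension) is exonic in the long form and intronic in the short form. Members were taken from the A3SS tables that rMATS, a program that counts reads on alternative splicing events, had produced for each RNA fraction, by the rule that the long exon exceeded the short exon by more than 50 nt. They numbered 2246 of 4916 A3SS events in whole-cell RNA and 1498 of 3498 in cytoplasmic RNA, and 1324 were present in both. No measured level entered this rule.

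The RNA came from U2OS, a cell line derived from a human osteosarcoma, 48 h after transfection of 20 nM of EGFP siRNA, the control, or of CHERP#2 siRNA, which targets the splicing-associated protein CHERP. RNA was taken from whole cells or from the cytoplasm, the supernatant of a detergent lysate, and 2 libraries were made for each siRNA and fraction, 8 in all. CHERP was depleted by a single siRNA sequence in these libraries, so a response to that sequence and a response to the loss of CHERP cannot be told apart. The duplicates are labelled as biological. The p-values rest on a spread between duplicates that is shared across events of like depth, and an event's own spread does not enter them.

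The inclusion level is the share of transcripts in the long exon form, from 0 to 1, computed from the reads of each form over its effective length. Reads inside the extension count toward the long form, so that reads of unspliced RNA are counted with it. An event was called when the adjusted p of a quasi-binomial test was under 0.05 over all A3SS events of the fraction.

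At the 3′ end of an intron, U2AF2 binds the polypyrimidine tract and U2AF1 the terminal AG, and U2 snRNP then pairs with the branch point upstream of them. CHERP is a nuclear protein found with U2 snRNP. When a pair of 3′ splice sites competes, use of the proximal site adds the extension to the mRNA, where it can insert amino acids, shift the reading frame, bring in a stop codon or lengthen an untranslated region. Transcripts with a stop codon well upstream of the last junction are substrates of nonsense-mediated decay, which acts on cytoplasmic mRNA.

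The 3′ splice sites of the events on which the results turn are shown because they bound the extension that separates the long from the short form. Each sequence runs 5′ to 3′ over 20 intronic and 3 exonic bases of the named site, read from GRCh37 (hg19), with the AG that ends the intron in capitals. The proximal site of each event comes first. The PFN2 pair lies at chr3:149684371-149684393 on the minus strand (proximal) and chr3:149684049-149684071 (distal), the HNRNPK pair at chr9:86584353-86584375 on the minus strand and chr9:86584293-86584315, the HNRNPC pair at chr14:21731986-21732008 on the minus strand and chr14:21731493-21731515, the MKNK2 pair at chr19:2039853-2039875 on the minus strand and chr19:2037826-2037848, and the MPP5 pair at chr14:67745715-67745737 on the plus strand and chr14:67745947-67745969.
PFN2 proximal: ttttcttctttctctttcAGtct
PFN2 distal: tgtttccttgtgtactccAGcat
HNRNPK proximal: ttttttcttttcttttatAGtgt
HNRNPK distal: atattttttcttttttatAGtgt
HNRNPC proximal: tgtcccttctcctttcacAGggc
HNRNPC distal: ttatttttgtttttttacAGtga
MKNK2 proximal: acccccaccccgtttcccAGgaa
MKNK2 distal: ttttttttttttttctgaAGgtg
MPP5 proximal: ccccccatctttccccttAGatt
MPP5 distal: tgttgatcttgcatcaccAGagg

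The inclusion level of the 5 events above rose after CHERP depletion. Among the events in which it fell, the DHRS2 pair lies at chr14:24110855-24110877 on the plus strand and chr14:24112341-24112363. The ITGB1BP1 pair lies at chr2:9547725-9547747 on the minus strand and chr2:9547032-9547054, and the BRD2 pair at chr6:32945017-32945039 on the plus strand and chr6:32945199-32945221. The SRSF5 pair lies at chr14:70236208-70236230 on the plus strand and chr14:70237164-70237186, and the ARL16 pair at chr17:79649703-79649725 on the minus strand and chr17:79649177-79649199.
DHRS2 proximal: cctcaattccttcttattAGgga
DHRS2 distal: atgctctgctctgatttcAGatc
ITGB1BP1 proximal: atctttcctgacttctgcAGgat
ITGB1BP1 distal: ctatctttcatgtaatgtAGgaa
BRD2 proximal: gaaatgatttctttttctAGaca
BRD2 distal: gatgctgcctccttctgcAGcgg
SRSF5 proximal: ttaaaccctttatttgccAGcct
SRSF5 distal: cacaattatcttgtgttaAGgat
ARL16 proximal: gttggtctcatcttgataAGgcc
ARL16 distal: gtctttttctttttccccAGttt

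CHERP itself had 103 and 77 reads over its splicing events in the whole-cell EGFP libraries and 3 and 10 in the CHERP libraries. In the cytoplasm it had 31 and 21 reads in the EGFP libraries and 3 and 4 in the CHERP libraries. Of the mesenchymal and bone markers, VIM had 10715 to 106604 event reads per library over the 8 libraries, FN1 768 to 21074, THY1 180 to 3055, COL1A1 34 to 176 and RUNX2 0 to 20. The epithelial marker CDH1 had 2 to 34 and the neuronal markers SNAP25 and RBFOX3 had 5 to 36 and 4 to 107. COL1A2, SPARC, EPCAM, KRT19, PTPRC, CD3E, ALB and APOA1 have no event in these tables and could not be checked. Reads on the members ranged from 757187 to 910587 per whole-cell library and from 160188 to 201893 per cytoplasmic library. The EGFP libraries of the whole-cell set stood further apart than the other duplicates: the chi-square per degree of freedom over A3SS read numbers was 8.72 between them, against 2.48 for the CHERP pair and 1.54 and 1.41 for the cytoplasmic EGFP and CHERP pairs.

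In whole-cell RNA the members belonged to 1601 genes and 2141 distinct pairs of 3′ splice sites, and 203 members shared their pair with another member. The distance between the sites ranged from 51 to 6147 nt with a median of 125 nt, and in the cytoplasm the median was 117 nt. The median member had 68.5 reads per library in whole cells and 26.3 in the cytoplasm, and 1707 and 847 members reached a mean of 20 reads. Of these, 50.2% had an inclusion level above 0.9 in the whole-cell EGFP libraries and 21.9% a level under 0.1, which left 27.9% at intermediate levels. The corresponding shares in the cytoplasm were 46.0%, 29.5% and 24.4%. Most members therefore had 1 dominant form in these cells, and more often the long one, with which reads of unspliced RNA are counted.

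Across the members with at least 20 reads, the median change in inclusion level after CHERP depletion was 1.87e-05 in whole cells and 0.000291 in the cytoplasm. The median absolute change, taken between means of 2 libraries, was 0.0210 in whole cells and 0.0225 in the cytoplasm. The median absolute difference between duplicates is one between single libraries. It was 0.0238 (EGFP) and 0.0189 (CHERP) in whole cells and 0.0195 and 0.0138 in the cytoplasm. A mean of 2 libraries varies less than a single library, so the change and the duplicate difference are not on the same scale. By the small median changes, the members showed no common direction in either fraction. The plot of the change against read depth shows the called events among them.

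**Figure D1:**
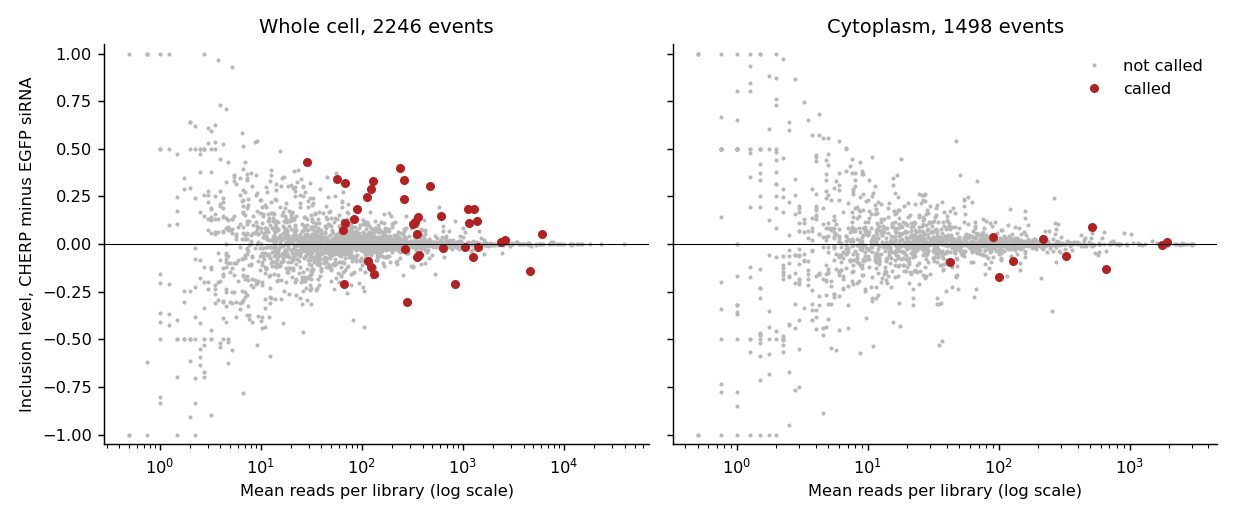
Change in inclusion level (CHERP minus EGFP siRNA, y axis) against the mean reads per library (x axis, log scale) for each member in whole-cell (left) and cytoplasmic (right) RNA; red points were called at an adjusted p under 0.05. The 40 called whole-cell events and the 10 called cytoplasmic events had at least 29 and 42.3 mean reads, and large differences at fewer reads were not called.

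In whole-cell RNA, 40 of the 2246 members were called, in 38 genes: 26 rose and 14 fell after CHERP depletion. Among all A3SS events of that fraction 1.14% were called, 0.712% as rises and 0.427% as falls. All 40 called members had inclusion levels that did not overlap between the siRNAs, a pattern that 27.6% of all A3SS events had. The rises went from a median level of 0.210 to 0.490 and the falls from 0.154 to 0.0644. In 27 of the 40 the level changed by at least 0.1. The calls rest on a dispersion borrowed from events of like depth: with limma on log2 odds, with either 0.5 or 2 added to each form, and with 4 prior degrees of freedom no member passed, although 174, 267 and 106 had an unadjusted p under 0.05 in these fits, and 5 passed when the dispersion trend was taken from the events whose rarer form had 10 or more reads. Leaving out a CHERP library lowered the count to 16 (first) or 17 (second), and leaving out the second EGFP library lowered it to 20.

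**Figure D2:**
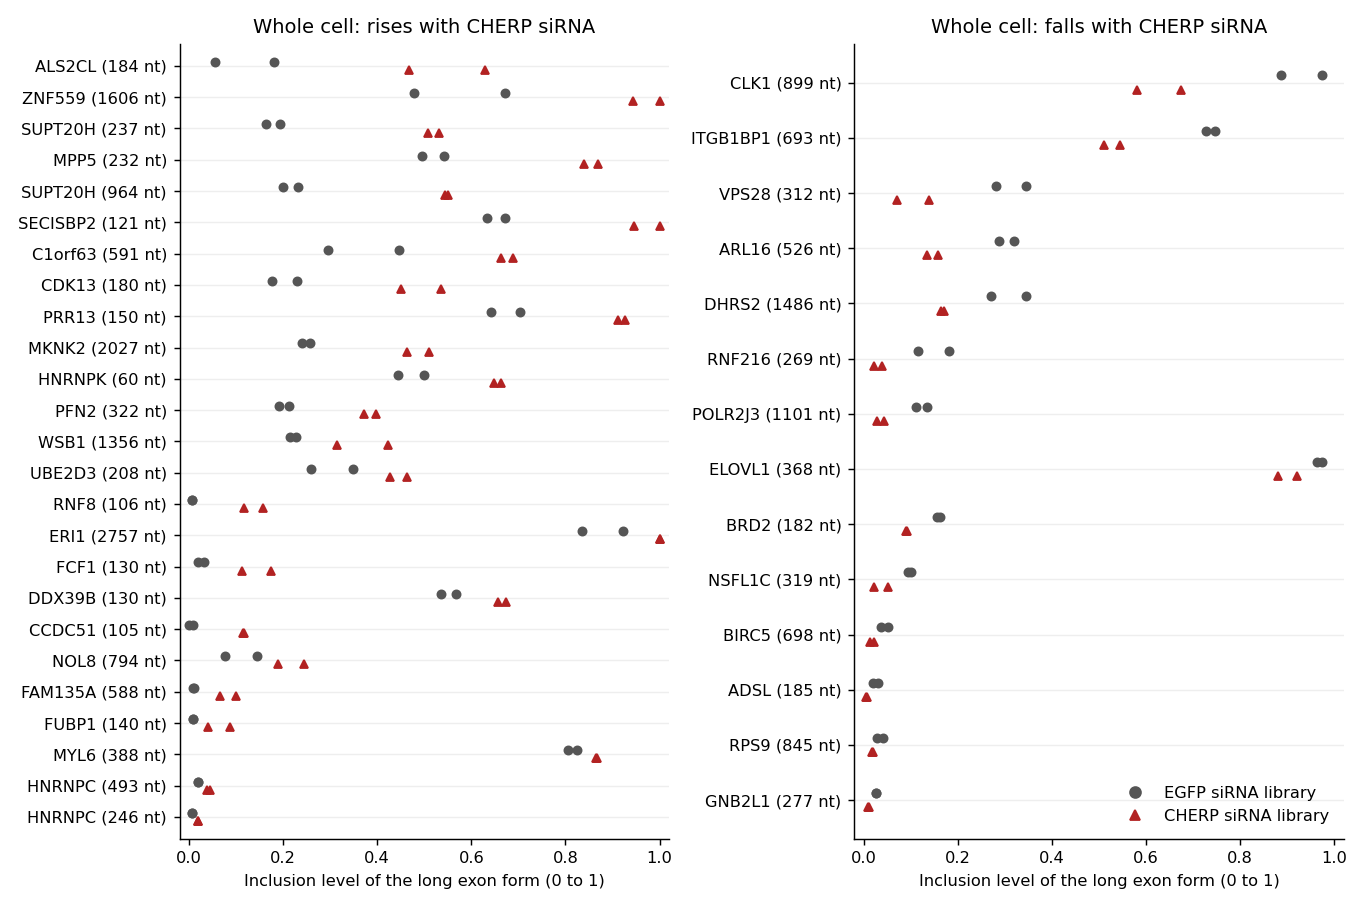
Inclusion level of the long exon form (x axis, 0 to 1) in each of the 4 whole-cell libraries for 39 of the called events, named by gene and distance between the sites; circles are EGFP siRNA libraries and triangles CHERP siRNA libraries. The 25 rises (left) and 14 falls (right) shown are ordered by the size of the change, and the symbols of the siRNAs do not overlap in any event.

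In whole cells the share of events called was 0.139% at 3 nt (1 of 720 with a 95% Wilson interval of 0.0245 to 0.782), 0.776% from 4 to 50 nt (15 of 1934 with an interval of 0.471 to 1.28) and 1.78% over 50 nt (40 of 2246 with an interval of 1.31 to 2.42). Within the members the share was 0.222% up to 100 nt (2 of 901 with an interval of 0.0609 to 0.806), 1.84% over 100 and up to 200 nt (11 of 597 with an interval of 1.03 to 3.27), 2.94% over 200 and up to 500 nt (12 of 408 with an interval of 1.69 to 5.07) and 4.41% over 500 nt (15 of 340 with an interval of 2.69 to 7.15). The intervals cover counting error only. Depth moved with distance, since the median reads were 53.8 up to 100 nt and 157 over 500 nt and a longer extension can hold more reads. Where the mean reads were 50 or more the shares were 0.436% (2 of 459), 3.17% (10 of 315), 4.60% (12 of 261) and 5.79% (15 of 259) in the same order, against 1.51% (15 of 992) from 4 to 50 nt. The difference between the classes was not tested.

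**Figure D3:**
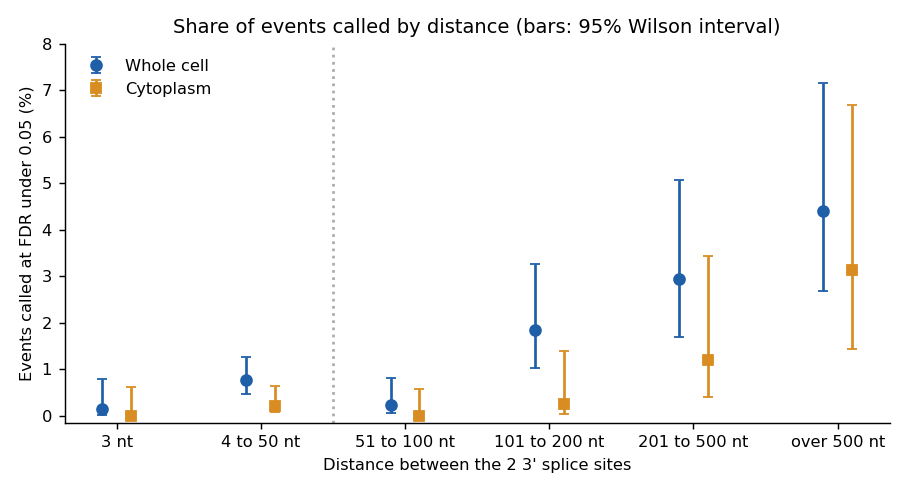
Share of A3SS events called (y axis, %) by the distance between their 3′ splice sites (x axis, nt) in whole-cell (circles) and cytoplasmic (squares) RNA; bars are 95% Wilson intervals and the dotted line marks the limit of 50 nt. In whole cells the share was 0.222% up to 100 nt and 4.41% over 500 nt, and in the cytoplasm 0% and 3.14%.

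At the limit of 50 nt, none of the 55 whole-cell events of 51 nt and none of the 19 of 50 nt was called. The event of 51 nt with the most reads, in CAPNS1, had levels between 0.998 and 1 in the 4 libraries, and that of 50 nt, in MYL6, between 0.999 and 1. In the cytoplasm the event of 51 nt with the most reads, in RPS15, lay between 0.00115 and 0.00749.

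Events in 6 genes were called in both fractions: PFN2, HNRNPC and MKNK2 rose, and DHRS2, RPS9 and BRD2 fell. The whole-cell and cytoplasmic tables come from separate libraries, so each gave its own values for these events. The reads of the fractions had different lengths, and differences in level between the fractions are given as descriptions with no test.

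PFN2 encodes profilin 2, an actin-binding protein. Its event has an extension of 322 nt at chr3:149684052-149684373 in intron 2 of 3, within the coding region. In whole cells the inclusion level was 0.212 and 0.192 in the EGFP libraries and 0.373 and 0.396 in the CHERP libraries, at 985 to 1531 reads per library. Both CHERP libraries stood above both EGFP libraries, and the log odds ratio was 0.91 ± 0.08 (natural log, ± SE, adjusted p = 6.37e-24). In the cytoplasm the level was lower with either siRNA but moved the same way, 0.071 and 0.0657 in the EGFP libraries and 0.166 and 0.151 in the CHERP libraries (log odds ratio 0.95 ± 0.11, adjusted p = 6.9e-15). The whole-cell call was kept without any 1 library, and the cytoplasmic call in 3 of 4 such fits, being lost without the first CHERP library (adjusted p = 0.0672).

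HNRNPC encodes an hnRNP protein that binds uridine-rich stretches of nascent transcripts. Both of its events lie in the 5′ UTR, in intron 1 of 8, and share the distal site and the upstream exon. The wider, with an extension of 493 nt at chr14:21731496-21731988, had whole-cell levels of 0.0199 and 0.0191 in the EGFP libraries and 0.0378 and 0.0453 in the CHERP libraries (2047 to 3043 reads, adjusted p = 7.35e-15). It was thus a minor form that increased in both CHERP libraries. The cytoplasmic levels were 0.014 and 0.0116 in the EGFP libraries and 0.0351 and 0.0474 in the CHERP libraries (adjusted p = 0.000425). The narrower event, of 246 nt, had whole-cell levels of 0.00742 and 0.0055 in the EGFP libraries and 0.0183 and 0.0189 in the CHERP libraries (adjusted p = 4.81e-07). In the cytoplasm its levels did not exceed 0.00133 and it was not called (adjusted p = 0.997). Both whole-cell calls were kept without any 1 library, and the cytoplasmic call of the wider event in 1 of 4 such fits (largest adjusted p = 0.851).

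MKNK2 encodes a kinase that phosphorylates the cap-binding factor eIF4E. The extension of 2027 nt at chr19:2037829-2039855 is part of the last exon in the long form, where the reading frame of the short form meets a stop codon 242 nt into it. The whole-cell level was 0.257 and 0.24 in the EGFP libraries and 0.51 and 0.463 in the CHERP libraries (adjusted p = 0.0371). In the cytoplasm it was 0.0192 and 0.0168 in the EGFP libraries and 0.066 and 0.0419 in the CHERP libraries (adjusted p = 0.0101). The CHERP libraries were the higher in both fractions. No fit without 1 library kept either call. Without the first cytoplasmic CHERP library the cytoplasmic change was 0.0239, against 0.0359 with all 4.

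DHRS2, which encodes a short-chain dehydrogenase/reductase, had the smallest adjusted p among the falls. Its extension of 1486 nt at chr14:24110875-24112360 lies in intron 4 of 8. The whole-cell level was 0.271 and 0.346 in the EGFP libraries and 0.164 and 0.171 in the CHERP libraries at 3670 to 6142 reads (log odds ratio -0.81 ± 0.05, adjusted p = 4.01e-49). The EGFP libraries differed from each other by more than the model's spread, with an own dispersion of 23.4 against the 2.16 that was used. In the cytoplasm the duplicates lay closer together and the level was 0.203 and 0.219 in the EGFP libraries and 0.0836 and 0.0792 in the CHERP libraries (adjusted p = 4.57e-18). The whole-cell call was kept without any 1 library, and the cytoplasmic call was lost without the first CHERP library (adjusted p = 0.0518). A retained-intron event over the same extension moved with it, with whole-cell levels of 0.192 and 0.25 in the EGFP libraries and 0.116 and 0.126 in the CHERP libraries.

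RPS9, a protein of the small ribosomal subunit, had an extension of 845 nt at chr19:54710421-54711265 in intron 4 of 4. The long form was rare, at 0.0294 and 0.0409 in the EGFP libraries and 0.02 and 0.0173 in the CHERP libraries in whole cells (adjusted p = 1.61e-06) and at 0.00657 and 0.00684 in the EGFP libraries and 0.00337 and 0.00303 in the CHERP libraries in the cytoplasm (adjusted p = 2.43e-07). The reading frame of the short form meets a stop codon 11 nt into the extension. Without the second EGFP library the whole-cell change was -0.0108, against -0.0165 with all 4, and the adjusted p was 0.059. The cytoplasmic call was kept in 2 of 4 such fits.

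BRD2 encodes a bromodomain protein that binds acetylated histones. At its extension of 182 nt at chr6:32945037-32945218, in intron 7 of 12, the level was 0.162 and 0.156 in the EGFP libraries and 0.0926 and 0.091 in the CHERP libraries in whole cells (adjusted p = 0.0494) and 0.154 and 0.144 in the EGFP libraries and 0.0578 and 0.061 in the CHERP libraries in the cytoplasm (adjusted p = 0.0133). The duplicates were close together and the EGFP libraries higher in both fractions. A retained-intron event over the extension fell too. Its whole-cell levels were 0.182 and 0.204 in the EGFP libraries and 0.143 and 0.142 in the CHERP libraries. The cytoplasmic ones were 0.0971 and 0.0904 in the EGFP libraries and 0.0376 and 0.0471 in the CHERP libraries. In the short form's frame a stop codon follows 4 nt into the extension. Neither call was kept in any fit without 1 library.

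Among the splicing factors and regulators on the list used here, 59 whole-cell members in 33 genes were measured. Of these 6 were called (10.2%, beside 1.14% of all A3SS events and 1.78% of all members), 5 as rises and 1 as a fall. This list and those below were chosen with earlier results of these data known, so their shares are no independent evidence. The median change over the 54 of them with at least 20 reads was 0.00134, beside 1.87e-05 over all members. Of the 6, 2 were the HNRNPC events, which share their short-form reads and so are not independent calls.

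HNRNPK, an hnRNP protein that binds cytosine-rich RNA, had an extension of 60 nt at chr9:86584296-86584355 in its last intron, intron 15 of 15. The level was 0.444 and 0.499 in the EGFP libraries and 0.649 and 0.663 in the CHERP libraries at 842 to 1314 reads (log odds ratio 0.74 ± 0.09, adjusted p = 1.87e-12), and the call was kept without any 1 library. Both sites of this pair have long thymine-rich tracts, with scores of 17.5 bits (proximal) and 15.9 bits (distal). The cytoplasmic levels were 0.638 and 0.633 in the EGFP libraries and 0.751 and 0.743 in the CHERP libraries, which did not overlap but were not called (adjusted p = 0.501).

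C1orf63, now named RSRP1 and coding for an arginine- and serine-rich protein, had an extension of 591 nt at chr1:25570125-25570715. The level was 0.295 and 0.447 in the EGFP libraries and 0.689 and 0.663 in the CHERP libraries (adjusted p = 1.85e-07) and the call was kept without any 1 library. The EGFP duplicates stood apart, with an own dispersion of the event of 7.14 against the 2.11 that was used. The retained-intron event over the same extension had levels of 0.313 and 0.458 in the EGFP libraries and 0.716 and 0.651 in the CHERP libraries, close to those of the A3SS event. DDX39B (UAP56), a helicase that acts in spliceosome assembly and mRNA export, had an extension of 130 nt in its 5′ UTR with levels of 0.536 and 0.568 in the EGFP libraries and 0.673 and 0.656 in the CHERP libraries (adjusted p = 0.000469, kept in 3 of 4 fits without 1 library). In the cytoplasm, at a mean of 23 reads, the DDX39B duplicates stood far apart and their levels overlapped, 0.152 and 0.324 in the EGFP libraries and 0.0647 and 0.285 in the CHERP libraries.

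CLK1, a kinase that phosphorylates SR proteins, was the only one of the 6 that fell. Its extension of 899 nt at chr2:201721709-201722607 was used at 0.974 and 0.887 in the EGFP libraries and 0.58 and 0.674 in the CHERP libraries (adjusted p = 0.0106, kept in 2 of 4 fits without 1 library). The retained-intron event over it lay at 0.0733 and 0.0873 in the EGFP libraries and 0.0744 and 0.0919 in the CHERP libraries, with overlapping siRNAs. The junction to the distal site is not in the annotation used here.

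In the cytoplasm 31 members of the same list were measured and 2 were called, the HNRNPC event and SRSF5. This was 6.45%, beside 0.372% of all cytoplasmic A3SS events and 0.668% of all cytoplasmic members. SRSF5 encodes an SR protein, a family that binds exonic enhancers. Its extension of 956 nt at chr14:70236228-70237183 was used at 0.128 and 0.0955 in the EGFP libraries and 0.0536 and 0.0494 in the CHERP libraries in the cytoplasm (adjusted p = 1.13e-06, kept in 1 of 4 fits without 1 library), and the frame of the short form meets a stop codon 49 nt into it. A retained-intron event over the same extension had cytoplasmic levels of 0.125 and 0.1 in the EGFP libraries and 0.0494 and 0.0455 in the CHERP libraries. These were close to the levels of the A3SS event. The whole-cell A3SS levels were higher with either siRNA, at 0.342 and 0.336 in the EGFP libraries and 0.284 and 0.298 in the CHERP libraries. Their change of -0.0484 was not called (adjusted p = 0.124).

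Of the mitosis and cell cycle list, 31 whole-cell members were measured and 1 fell. This was 3.23%, beside 1.14% of all A3SS events and 1.78% of all members called. It was in BIRC5, which encodes survivin of the chromosomal passenger complex, with an extension of 698 nt and levels of 0.0362 and 0.051 in the EGFP libraries and 0.0126 and 0.0216 in the CHERP libraries (adjusted p = 0.0494, kept in 1 of 4 fits without 1 library). A retained-intron event over the BIRC5 extension fell too, from 0.14 and 0.192 in the EGFP libraries to 0.0585 and 0.0676 in the CHERP libraries. Of the DNA replication and repair list, 31 were measured and 1 rose, again 3.23% beside 1.14%. This event was in RNF8, a ubiquitin ligase that acts at DNA double-strand breaks, and its extension of 106 nt at chr6:37336154-37336259 was nearly unused in the control, at 0.00673 and 0.00578 in the EGFP libraries and 0.157 and 0.116 in the CHERP libraries (adjusted p = 0.00104, kept in 3 of 4 fits). Each whole-cell EGFP library had 1 long-form read of RNF8. The RNF8 levels were higher in the cytoplasm with either siRNA, at 11.75 mean reads, and were not called. They were 0.071 and 0.0636 in the EGFP libraries and 0.169 and 0.29 in the CHERP libraries. In the annotation the long form of RNF8 occurs only in transcripts classed as targets of nonsense-mediated decay.

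Of the ribosomal protein and snoRNA host genes, 98 whole-cell members in 31 genes were measured and 2 fell, RPS9 and GNB2L1. This was 2.04%, beside 1.14% of all A3SS events and 1.78% of all members called. GNB2L1, now named RACK1, encodes a scaffold protein on the small ribosomal subunit, and its extension of 277 nt had levels of 0.0254 and 0.0254 in the EGFP libraries and 0.012 and 0.0101 in the CHERP libraries (adjusted p = 0.0109, kept in none of 4 fits without 1 library). The median changes over the mitosis, the DNA repair and the ribosomal list lay between -0.00115 and -0.000493 in whole cells, beside 1.87e-05 over all members. In the cytoplasm no member of the mitosis or the DNA repair list was called, of 27 and 19 measured. The BIRC5 level fell there too, without overlap, at 0.0412 and 0.066 in the EGFP libraries and 0.0208 and 0.0158 in the CHERP libraries (adjusted p = 0.121 in the quasi-binomial test). The ribosomal and snoRNA host list had 2 of 62 cytoplasmic members called. This was 3.23%, beside 0.372% of all cytoplasmic A3SS events and 0.668% of all cytoplasmic members.

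CDK13 encodes a kinase of the RNA polymerase II C-terminal domain, and its extension of 180 nt, a multiple of 3 without a stop codon in the frame of the short form, had levels of 0.23 and 0.176 in the EGFP libraries and 0.535 and 0.451 in the CHERP libraries (adjusted p = 0.000469, kept in 2 of 4 fits without 1 library). In the cytoplasm the CDK13 levels did not overlap either, at 0.0714 and 0.103 in the EGFP libraries and 0.357 and 0.336 in the CHERP libraries (adjusted p = 0.145). SUPT20H, a subunit of the SAGA coactivator complex, had an extension of 237 nt with levels of 0.194 and 0.165 in the EGFP libraries and 0.531 and 0.508 in the CHERP libraries (adjusted p = 0.00957, kept in 1 of 4 fits). Its cytoplasmic levels, at 13.8 mean reads, overlapped at 0.248 and 0.105 in the EGFP libraries and 0.164 and 0.209 in the CHERP libraries. ZNF559, a zinc finger protein, rose from 0.575 ± 0.136 with EGFP siRNA to 0.972 ± 0.0399 with CHERP siRNA (SD, n = 2, adjusted p = 0.0118). In the cytoplasm, at 54 mean reads, the ZNF559 levels overlapped at 0.742 and 0.444 in the EGFP libraries and 0.646 and 1 in the CHERP libraries. UBE2D3, a ubiquitin-conjugating enzyme, rose from 0.305 ± 0.063 with EGFP siRNA to 0.446 ± 0.0266 with CHERP siRNA at an extension of 208 nt in its 5′ UTR (adjusted p = 0.0172). At 53.5 mean reads in the cytoplasm the UBE2D3 long form was nearly absent and not called. Its levels there were 0 and 0.00462 in the EGFP libraries and 0.00562 and 0.00615 in the CHERP libraries. WSB1, a substrate receptor of a ubiquitin ligase, had levels of 0.227 and 0.215 in the EGFP libraries and 0.315 and 0.424 in the CHERP libraries (adjusted p = 0.000327). Without the second CHERP library the WSB1 change was 0.0938, against 0.148 with all 4. The cytoplasmic WSB1 levels were lower and not called. They were 0.0428 and 0.0373 in the EGFP libraries and 0.0572 and 0.0667 in the CHERP libraries.

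MPP5, now named PALS1, is a scaffold of apical cell polarity. Its extension of 232 nt at chr14:67745735-67745966 lies in the 5′ UTR, and the level was 0.495 and 0.543 in the EGFP libraries and 0.869 and 0.838 in the CHERP libraries (log odds ratio 1.69 ± 0.29, adjusted p = 1.56e-07). The CHERP libraries lay far above the EGFP libraries and the call was kept without any 1 library. In the cytoplasm the MPP5 levels were 0.616 and 0.408 in the EGFP libraries and 0.799 and 0.886 in the CHERP libraries, a change of 0.33 at 68.8 mean reads that was not called (adjusted p = 0.145).

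ALS2CL had the largest rise of all called members and the fewest reads, 17 to 39 per library, with levels of 0.18 and 0.0553 in the EGFP libraries and 0.63 and 0.468 in the CHERP libraries (adjusted p = 0.0452, kept in none of 4 fits without 1 library). The retained-intron event over its extension had levels of 0.202 and 0.0212 in the EGFP libraries and 0.619 and 0.444 in the CHERP libraries. SECISBP2, which encodes a factor of selenoprotein synthesis, rose from 0.652 ± 0.0271 with EGFP siRNA to 0.973 ± 0.0379 with CHERP siRNA (SD, n = 2, adjusted p = 0.038) at an extension of 121 nt, and PRR13 from 0.672 ± 0.0426 with EGFP siRNA to 0.918 ± 0.01 with CHERP siRNA at 150 nt (adjusted p = 0.0324). These calls were kept in 1 and 1 of 4 fits, and those of ZNF559 and UBE2D3 in 1 and 1. A further 8 rises were called outside the rule for named events, with changes from 0.0523 to 0.332 and extensions of 105 to 2757 nt.

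The largest falls after CLK1 were in ITGB1BP1 and VPS28. ITGB1BP1 encodes a protein that binds the cytoplasmic tail of integrin beta 1, and its extension of 693 nt at chr2:9547035-9547727 was used at 0.746 and 0.728 in the EGFP libraries and 0.51 and 0.544 in the CHERP libraries (778 to 910 reads, log odds ratio -0.92 ± 0.18, adjusted p = 6.97e-05). This call was kept without any 1 library. In the cytoplasm the ITGB1BP1 levels were lower, at 0.494 and 0.372 in the EGFP libraries and 0.224 and 0.289 in the CHERP libraries, without overlap between the siRNAs (adjusted p = 0.145). VPS28, a subunit of the ESCRT-I sorting complex, fell from 0.313 ± 0.0449 with EGFP siRNA to 0.105 ± 0.0479 with CHERP siRNA (SD, n = 2, adjusted p = 0.0292, kept in none of 4 fits without 1 library).

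In most of the other falls the long form was the minor one. RNF216, a ubiquitin ligase, had levels of 0.115 and 0.181 in the EGFP libraries and 0.0217 and 0.0382 in the CHERP libraries at an extension of 269 nt (adjusted p = 0.000146, kept in 2 of 4 fits without 1 library). NSFL1C, a cofactor of the p97 ATPase, fell from 0.0971 ± 0.00498 with EGFP siRNA to 0.037 ± 0.0213 with CHERP siRNA (adjusted p = 0.000146, kept in 3 of 4). In the cytoplasm the NSFL1C long form was nearly absent, at 0 and 0.00786 in the EGFP libraries and 0.000969 and 0 in the CHERP libraries. ADSL, an enzyme of purine synthesis, fell from 0.0249 ± 0.00745 with EGFP siRNA to 0.00573 ± 0.00178 with CHERP siRNA (adjusted p = 0.0041, kept in 1 of 4). ARL16, a small GTPase of the ARF-like family, fell from 0.303 ± 0.0226 with EGFP siRNA to 0.146 ± 0.016 with CHERP siRNA, and its proximal site scored 2.23 bits against 15.5 for the distal site (adjusted p = 0.038, kept in none of 4). ELOVL1, an elongase of very-long-chain fatty acids, was the sole fall other than CLK1 and ITGB1BP1 in which the long form was the major one, from 0.969 ± 0.0078 with EGFP siRNA to 0.901 ± 0.0286 with CHERP siRNA (adjusted p = 0.038, kept in 1 of 4). POLR2J3, with a fall from 0.123 ± 0.017 with EGFP siRNA to 0.0357 ± 0.0107 with CHERP siRNA (adjusted p = 0.000788, kept in 2 of 4), belongs to a family of near-identical gene copies between which reads can be divided, so its level is uncertain.

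In cytoplasmic RNA, 10 of the 1498 members were called, 4 as rises and 6 as falls, beside 0.372% of all A3SS events, 0.114% as rises and 0.257% as falls. Besides the events in the 6 shared genes and SRSF5, they included WHSC1 and C17orf76-AS1. WHSC1, now named NSD2, encodes a histone H3 methyltransferase and had levels of 0.128 and 0.0893 in the EGFP libraries and 0.0176 and 0.0112 in the CHERP libraries (adjusted p = 0.0121, kept in 1 of 4 fits without 1 library). The whole-cell change of WHSC1 was smaller in size, at -0.0728, and was not called. C17orf76-AS1, now named SNHG29, is a long non-coding host of snoRNAs and rose by 0.0117, with levels of 0.0475 and 0.0423 in the EGFP libraries and 0.0545 and 0.0588 in the CHERP libraries (adjusted p = 0.0121, kept in 1 of 4). No cytoplasmic member passed with limma (0.5 or 2 added), with 4 prior degrees of freedom or without the first CHERP library, where 153, 227, 41 and 58 had an unadjusted p under 0.05, and 2, 6 and 5 passed without the second CHERP, the first EGFP and the second EGFP library.

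**Figure D4:**
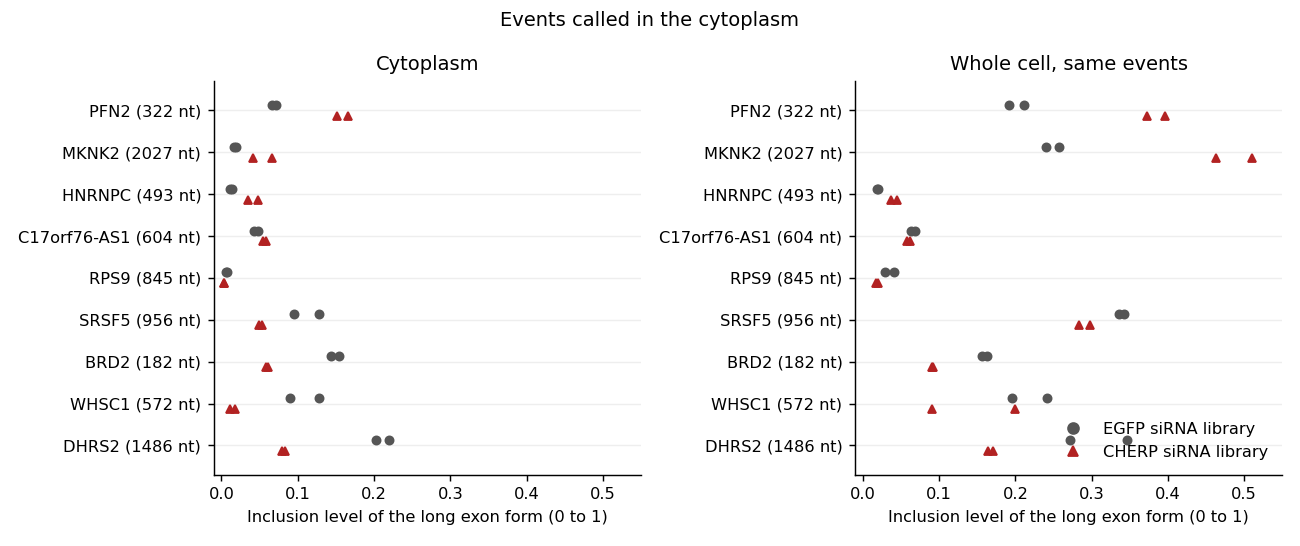
Inclusion level of the long exon form (x axis, 0 to 1; axis shown to 0.55) of 9 events called in the cytoplasm, in the cytoplasmic libraries (left) and in the whole-cell libraries (right); circles are EGFP siRNA libraries and triangles CHERP siRNA libraries. PFN2, MKNK2 and HNRNPC rose and RPS9, BRD2 and DHRS2 fell in both fractions, and the whole-cell levels of WHSC1 overlap.

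Of the 40 events called in whole cells, 35 were also measured in the cytoplasm, 8 of them at a mean under 20 reads. The cytoplasmic change had the same sign in 31, and in 21 of these the cytoplasmic levels of the siRNAs did not overlap. Among all cytoplasmic A3SS events 26.7% had no overlap, a share that counts either direction and any depth. The share with the same sign over all shared events was not computed. The effect of the siRNA was compared between the fractions for the 3155 shared A3SS events. None was called (0.0% of all), and among the 1324 members the unadjusted p was under 0.05 for 21, or 1.59%. With 2 added to each form 19 members had such a p, and with 4 prior degrees of freedom 7. The smallest p among members were those of SRSF5 (difference of the log odds ratios, whole minus cytoplasm, 0.601 ± 0.155, p = 0.000104, adjusted p = 0.193) and of C17orf76-AS1 (-0.351 ± 0.0913, p = 0.000123, adjusted p = 0.193) in this quasi-binomial model.

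With EGFP siRNA alone, 743 shared members reached 20 reads in both fractions. Their level was lower in the cytoplasm for 478 and higher for 237, and it was lower by at least 0.1 for 112 and higher by as much for 25. The median difference, cytoplasm minus whole cell, was -0.0105 over all of them, -0.00639 for the 326 up to 100 nt apart and -0.0387 for the 97 over 500 nt. With CHERP siRNA 470 were lower and 248 higher in the cytoplasm. The read length differs between the fractions, and its part in this difference was not tested.

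The place of the events in their transcripts was read from GENCODE 44 on GRCh37. Of the whole-cell members, 1189 (52.9%) lay in the coding region of a protein-coding transcript that uses the distal site, 168 (7.48%) in a 5′ UTR and 12 in a 3′ UTR. The distal site belonged to no protein-coding transcript for 463, and the junction to it was not annotated for 414. Of the 26 rises 20 were coding and 5 in a 5′ UTR, and of the 14 falls 11 were coding and 1 in a 5′ UTR. When the reading frame of the short form was continued into the extension, a stop codon followed in 590 of the 1189 coding members (49.6%), in 15 of 20 rises and in 11 of 11 falls. The extension kept the frame without a stop in 392 of the coding members (33.0%), in 4 of 20 rises and in none of the 11 falls. Such a stop codon can also be the annotated end of a long form, which was not separated here. A longer extension holds more codons in which a stop can occur. The median distance between the sites was 234.5 nt in the rises and 447 nt in the falls, beside 125 nt over all members. The shares were not compared at like lengths, so the part of length in them was not tested. The long form occurred in a transcript classed as a target of nonsense-mediated decay for 10 of the rises and 10 of the falls, and for 1010 of all members.

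The strength of each 3′ splice site was given as a log-odds score in bits over the same 23 bases, from the base frequencies at 71523 reference sites. These reference sites are the 3′ ends of introns in the skipped-exon tables and have a median score of 9.66. The proximal site ended in AG for 2245 of the 2246 whole-cell members and the distal site for 2243. The median score was 7.95 at the proximal sites and 6.59 at the distal sites, and the proximal site scored higher in 60.5% of the members. Among the rises the proximal site scored higher in 16 of 26, with medians of 10.1 and 8.37, and among the falls in 6 of 14, with medians of 7.82 and 8.90. The median difference, proximal minus distal, was 2.87 bits in the rises and -1.83 bits in the falls, beside 1.27 bits over all members. With a score matrix made from the A3SS sites themselves these values were 1.51, -1.46 and 0.647 bits. The extension had a median GC content of 37.8% in the rises and 51.1% in the falls, beside 52.2% over all members. These are descriptions of small groups, which were not compared by a test.

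**Figure D5:**
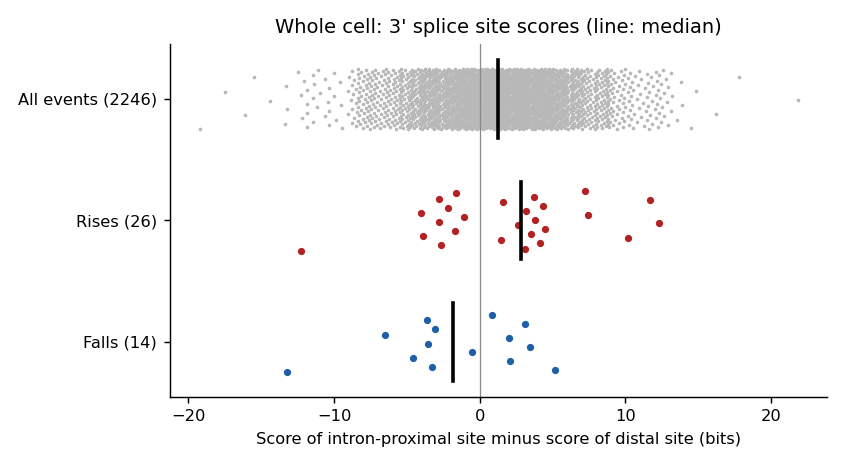
Score of the intron-proximal 3′ splice site minus score of the distal site (x axis, bits) for the 2246 whole-cell members and for the 26 rises and 14 falls among them; each point is an event and the black lines are medians. The medians lie at 1.27, 2.87 and -1.83 bits, and the ranges of the groups overlap widely.

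Because reads of unspliced RNA fall on the long form, the retained-intron events of the same tables were set beside the members. An intron with a retained-intron event overlapped the extension of 705 whole-cell members (31.4%) and of 16 of the 40 called ones. For 12 of these 16 the retained-intron level moved in the direction of the A3SS event. The 12 include both HNRNPC events, which lie over the same retained intron. They also include ITGB1BP1 and ELOVL1, whose retained-intron levels overlapped between the siRNAs. RPS9 moved the other way, with overlapping retained-intron levels of 0.404 and 0.469 in the EGFP libraries and 0.461 and 0.478 in the CHERP libraries. The share that moved the same way among all 705 members was not computed. ARL16 was among the 12, with retained-intron levels of 0.236 and 0.184 in the EGFP libraries and 0.122 and 0.135 in the CHERP libraries. The other 24 called members, 20 rises and 4 falls, had no such event, among them PFN2, HNRNPK, MPP5, MKNK2 and CDK13. In the cytoplasm 5 of the 10 called members had a retained-intron event over the extension, beside 261 of all 1498 members (17.4%), and it moved the same way in all 5. Some of the same reads enter both event types, and the part of unspliced RNA in the A3SS changes was not tested.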

How the data were processed

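U2OS RNA was sequenced by the authors as TruSeq stranded mRNA libraries on a NextSeq instrument and mapped to hg19 with STAR 2.5.2b, and splicing events were counted with rMATS, whose version is not given in the sources used here. Per the file headers, the deposited tables give reads on each form in each library, without normalization, and an effective length per form. The p-values, FDR values and 20 columns of inclusion levels that the authors computed were not used, and neither was their table of gene expression. The read counts of the 2 libraries of an siRNA and fraction are listed together without a replicate number and were used in the listed order.

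Members and gene lists were chosen with earlier results of these data known. Inclusion levels were computed from reads over effective lengths, where the short form has a length of 144 in whole cells and 73 in the cytoplasm. Every event was fitted with a quasi-binomial model of long-form against short-form reads. Its dispersion was moderated with a trend on mean reads and a floor of 1 (limma 3.58.1, R 4.3.3). The estimated prior degrees of freedom were infinite, so that an event's own spread had no weight. The dispersion used ranged from 2.11 to 4.53 in whole cells and from 1.17 to 3.60 in the cytoplasm. Some called whole-cell events had a larger own dispersion, such as NSFL1C (7.51 against 2.11), RPS9 (6.99 against 2.13) and WSB1 (4.62 against 2.11). Others had a smaller one, such as SUPT20H (0.162 against 2.13) and MKNK2 (0.217 against 2.11). Adjustment of p-values followed Benjamini and Hochberg over all A3SS events of a fraction, with a threshold of 0.05. The siRNA by fraction interaction was a Wald test on the difference of log odds ratios with 0.5 added to each form. The code was tested on simulated data.

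Named events were the 15 largest rises and 15 largest falls per fraction among called members without overlap whose mean reads were 20 or more, 1 per gene, and every called member in both fractions, in the interaction or on a gene list. Of 3198 genes 3175 had a current symbol in GENCODE 44. Sequences came from GRCh37 with pysam 0.24.0. Some called events and their genes are not reported here and are not drawn by name, while the counts include them.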

Additional observations from a re-analysis of the deposited data

Results flagged for a closer look

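The C17orf76-AS1 (SNHG29) event of 604 nt moved in opposite directions in the fractions without overlap between the siRNAs in either. The inclusion level rose by 0.0117 in the cytoplasm, where it was called, and the whole-cell difference was -0.00579, which was not called (adjusted p = 0.872 in the quasi-binomial test). The difference of the log odds ratios between the fractions did not pass over all shared events (adjusted p = 0.193 in the quasi-binomial model).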

How the results depend on the processing

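With the dispersion trend from events whose rarer form had 10 or more reads, 5 whole-cell members were called against 40, all 5 among the 40, and 16 cytoplasmic members against 10, with the 10 among the 16. With 4 prior degrees of freedom and with limma on log2 odds with 0.5 or 2 added, 0 members were called in either fraction, while 106, 174 and 267 had an unadjusted p under 0.05 in whole cells and 41, 153 and 227 in the cytoplasm. Of the 10 cytoplasmic calls, 2 had a change of at least 0.1. Leaving out 1 library gave 16 to 34 calls in whole cells and 0 to 6 in the cytoplasm, by construction with fewer samples. Of the 40 whole-cell calls 9 were kept in all 4 of these fits and 9 in none, and of the 10 cytoplasmic calls 0 and 2. The read minimums of 10 and 50, distances over 100 or 200 nt and 1 event per pair of sites left 27 to 49 calls in whole cells and 9 to 11 in the cytoplasm. The interaction had 0 calls under each of its 3 alternatives. The causes of the changes between settings were not tested. No paired analysis was possible because the libraries of a cell carry no replicate number. The median depth was 26.3 reads per cytoplasmic member and library, and the 10 called members had means of 42.3 to 1943.5 reads.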
